A study of Mus musculus with 4 samples.

Results

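The genes described here are 10 connective tissue genes linked to fascia, tendon and cartilage, namely Tnmd, Thbs4, Comp, Chad, Cilp, Prg4, Itgbl1, C1qtnf3, Nox4 and Inmt. They were chosen by name from 18193 genes with a probe set of their own, with the differences between these same arrays already known. Their differences between the groups are therefore given as a description, without a test. RNA came from the whole dorsal skin of male C57B6 mice without a stated genetic change or treatment. The groups are postnatal day 54 (P54), a middle time of adult telogen, and postnatal day 59 (P59), a late one, with 2 arrays each. Telogen is the resting phase of the hair cycle. The labels call the arrays biological replicates but do not give the animals behind them, so any spread quoted here is that between these samples.

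Fascia is the loose and dense connective tissue under the skin, and tendon is a dense cord of aligned collagen. Both are built by fibroblast-like cells that secrete collagen together with small proteins that space, bridge and lubricate its fibres. In mouse back skin a fascia layer lies beneath the thin panniculus carnosus muscle, so that a whole-skin sample can hold dermis, fat, muscle and fascia together. In such bulk samples fewer cells of a type and less RNA per cell cannot be told apart.

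Tendon markers other than the members themselves bore out the tendon part of the label little. Genes were called above the intensity filter when their mean over the 4 arrays exceeded a log2 intensity of 6.58, an intensity of 95.5. Of 6 tendon cell markers 3 passed, namely the members Tnmd and Thbs4, and Fmod, the gene of the collagen-binding proteoglycan fibromodulin. Outside the members only Fmod passed, and its groups overlapped, with 9.46 and 9.23 at P54 against 8.68 and 9.52 at P59. The tendon transcription factor Scx lay between 4.57 and 5.00 on all arrays and the cornea and tendon proteoglycan Kera between 5.75 and 6.24. Mkx, a second tendon transcription factor, read 6.15 and 5.63 at P54 against 6.31 and 7.31 at P59. Of 7 chondrocyte markers 5 stayed below the filter, among them the cartilage proteoglycan Acan (5.18 to 5.59), and Col2a1 and Sox9 passed it. All 6 measured fascia fibroblast markers and all 7 dermal fibroblast markers were above the filter. Scx, the defining transcription factor of tendon, and most chondrocyte markers thus lay below the filter. These arrays give no firm level there, so absence is not read from them.

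Promoters were read for the 8 members that RefSeq's table (GRCm38.p6) held, as the 250 bases before each annotated start. The 4 shown belong to the members above the filter at both times whose groups lay farthest apart, to set the promoter letters of genes with a like profile side by side. They are C1qtnf3 (chr15:10952082-10952331, plus strand), Inmt (chr6:55174991-55175240, minus strand), Itgbl1 (chr14:123659890-123660139, plus strand) and Cilp (chr9:65264930-65265179, plus strand). Capitals mark every match, on either strand, to the TATA box letters TATAAA, the CCAAT box, the AP-1 letters TGANTCA, the Smad letters CAGAC, the TEAD letters GGAATG and the E-box letters CANNTG.
C1qtnf3: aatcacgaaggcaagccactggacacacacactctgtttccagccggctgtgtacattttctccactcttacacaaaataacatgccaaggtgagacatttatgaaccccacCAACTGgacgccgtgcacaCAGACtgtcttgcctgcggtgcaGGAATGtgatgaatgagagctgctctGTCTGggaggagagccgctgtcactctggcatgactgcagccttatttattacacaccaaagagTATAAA
Inmt: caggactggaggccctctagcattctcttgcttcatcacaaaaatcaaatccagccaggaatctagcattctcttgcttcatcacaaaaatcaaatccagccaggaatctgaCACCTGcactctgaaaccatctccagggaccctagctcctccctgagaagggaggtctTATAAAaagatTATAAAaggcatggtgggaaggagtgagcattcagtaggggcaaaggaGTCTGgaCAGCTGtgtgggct
Itgbl1: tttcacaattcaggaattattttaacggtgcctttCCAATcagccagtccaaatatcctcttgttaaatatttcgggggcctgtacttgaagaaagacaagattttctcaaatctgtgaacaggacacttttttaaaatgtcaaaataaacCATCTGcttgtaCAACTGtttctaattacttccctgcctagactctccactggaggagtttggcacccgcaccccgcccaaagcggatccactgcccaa
Cilp: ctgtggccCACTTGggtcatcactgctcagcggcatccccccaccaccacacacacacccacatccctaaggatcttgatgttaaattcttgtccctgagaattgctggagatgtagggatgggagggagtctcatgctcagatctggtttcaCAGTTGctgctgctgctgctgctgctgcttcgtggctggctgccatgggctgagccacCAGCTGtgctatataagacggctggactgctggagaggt
The E-box, the kind of site that basic helix-loop-helix factors such as scleraxis bind, was present in 7 of the 8 members and in 66.2% of all 32841 promoter windows. CAGAC stood in 4 of 8 members against 42.2% of windows, and GGAATG in C1qtnf3 and Thbs4 against 12.6%. TATAAA was found in C1qtnf3, Inmt and Chad, against 12.4% of windows, and CCAAT in Itgbl1 alone, against 33.9%. The TATAAA matches differed in place, at 28 to 23 bases before the annotated start in Chad and 6 to 1 in C1qtnf3. In Inmt they lay 80 to 75 and 69 to 64 bases before it. No member window held TGANTCA, which 6.75% of windows hold. These matches describe letters alone, and no motif other than the common E-box was shared by all 4 promoters shown.

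Among the tendon matrix genes Tnmd and Thbs4 were higher at P59, while Comp and Chad stayed at low intensity on all 4 arrays. Tnmd encodes tenomodulin, a membrane protein typical of mature tendon and ligament fibroblasts. Its log2 intensity was 10.56 on the first P54 array and 10.51 on the second, against 11.08 on the first P59 array and 11.96 on the second. The arrays of a time are given in this order throughout. The P54 arrays were nearly equal and both P59 arrays lay above them, the second much further than the first. The means were 10.53 ± 0.04 and 11.52 ± 0.62 (SD, n = 2 per group), a log2 difference of 0.99 or 1.98-fold. From P59 replicate 1 alone the log2 difference was 0.55, and from P59 replicate 2 alone it was 1.43.

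Thbs4 encodes thrombospondin 4, a pentameric protein of the tendon and muscle attachment matrix. It was at 7.999 and 7.41 on the P54 arrays and at 9.07 and 8.29 on the P59 arrays. The groups did not overlap, but the gap between the lowest P59 array and the highest P54 array was 0.29, the narrowest among the 8 members with separate groups. Thbs4 was the member of those 8 with the higher value in P59 replicate 1. Its mean log2 difference was 0.97, or 1.97-fold, and 0.58 without P59 replicate 1.

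Comp, the cartilage oligomeric matrix protein and a thrombospondin relative of Thbs4, read 5.13 and 5.08 at P54 against 5.31 and 4.89 at P59. The groups overlapped and the mean log2 difference was -0.0026. Chad encodes chondroadherin, a leucine-rich repeat protein of cartilage to which chondrocytes attach. Its log2 intensity was 5.05 and 5.37 at P54 against 5.07 and 5.19 at P59, again with overlap, for a difference of -0.08. Neither gene passed the filter, so these arrays give no firm level for them.

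Cilp and Prg4, which act in cartilage, joint surfaces and sliding tissue layers, were both higher on the P59 arrays. Cilp encodes cartilage intermediate layer protein, a secreted glycoprotein that binds TGF-beta and is made by fibroblasts as well. Its values were 10.20 and 10.26 at P54 against 11.06 and 11.42 at P59. The arrays of each time lay close together, with a gap of 0.80 between the times. The log2 difference was 1.01, or 2.01-fold, and it ranged from 0.83 to 1.19 when single arrays were left out.

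Prg4 encodes lubricin, the mucin-like protein that lubricates joints and gliding surfaces. It read 5.58 and 6.49 at P54 against 7.56 and 7.73 at P59. Both P54 arrays lay below the filter level and both P59 arrays above it. The P54 arrays differed from each other by 0.91, more than the P59 arrays did (0.17). The mean log2 difference was 1.61, or 3.06-fold, with a range of 1.16 to 2.07 over the single arrays left out. Since the P54 mean of 6.03 was below the filter, this fold is rough.

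The genes of the secreted proteins Itgbl1 and C1qtnf3 were both higher at P59 without overlap between the times. Itgbl1 encodes a secreted protein with repeats like the EGF-type repeats of integrin beta chains. It read 9.65 and 9.45 at P54 against 10.60 and 11.11 at P59. All 4 arrays were far above the filter, and the gap between the times was 0.95. The means of 9.55 ± 0.14 and 10.85 ± 0.36 (SD, n = 2 per group) gave a log2 difference of 1.30, or 2.47-fold.

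C1qtnf3 encodes CTRP3, a secreted relative of adiponectin with a collagen-like stalk and a C1q-type globular head, also described in growing cartilage. Its log2 intensity was 9.18 and 8.86 at P54 against 10.45 and 11.09 at P59. Both P59 arrays stood well clear of both P54 arrays, with a gap of 1.28. The means were 9.02 ± 0.22 and 10.77 ± 0.45 (SD, n = 2 per group), a log2 difference of 1.75 or 3.36-fold. Among members above the filter at both times only Inmt had a larger difference.

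Of the enzymes, Nox4 encodes an NADPH oxidase that releases hydrogen peroxide and is known as a TGF-beta-responsive gene of fibroblasts. Its brighter probe set read 5.63 and 5.96 at P54 against 7.39 and 8.50 at P59. Its other probe set gave 4.88 and 5.29 at P54 against 6.67 and 7.74 at P59. Both sets ordered the 4 arrays alike, P59 replicate 2 being highest and P54 replicate 1 lowest. The log2 difference was 2.15 for the brighter set, or 4.44-fold, and 2.12 for the other. These were the widest differences of the 10 genes, yet the P54 mean of 5.80 was below the filter and the fold is rough. The P59 arrays were 1.11 apart, so that the difference was 1.60 without P59 replicate 2 and 2.71 without P59 replicate 1. Nox4 was the member with several probe sets of its own, and the other 9 have no second set to set beside the first.

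Inmt encodes indolethylamine N-methyltransferase, which methylates tryptamine and related amines and is found in fibroblasts of several tissues. It read 9.40 and 8.66 at P54 against 10.48 and 11.16 at P59. The second replicate differed from the first by -0.74 at P54 and by 0.67 at P59, and the gap between the times was 1.08. The mean log2 difference was 1.79, or 3.46-fold, between 1.42 and 2.16 with single arrays left out.

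**Figure D1:**
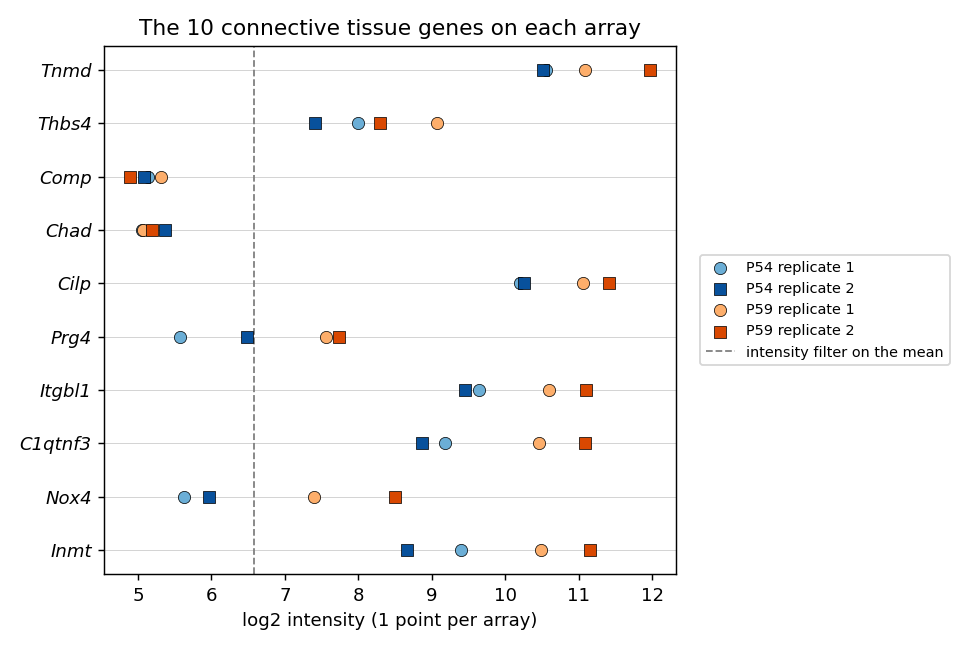
Log2 intensity of each of the 10 genes (rows) on the 4 arrays; blue points are P54, orange points P59, circles replicate 1 and squares replicate 2, and the dashed line is the intensity filter at 6.58, which was applied to a gene's mean. In 8 rows both orange points lie to the right of both blue points, in the rows of Comp and Chad they mix, and Prg4 and Nox4 have their P54 points left of the line.

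Across the 10 genes both P59 arrays lay above both P54 arrays for 8, and the reverse held for 0. Over all 10916 genes above the filter P59 was higher without overlap in 18.9% and lower without overlap in 14.8%. Nothing is read from the members' count, because they were chosen with this contrast known, and no p is given for them. Prg4 and Nox4 passed the filter through their P59 values alone. The median log2 difference of all 10 genes was 1.16, beside a median of 0.05 over all genes tested.

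The order of the replicates varied among the members. Of the 10 genes 7 were highest in P59 replicate 2, 2 in P59 replicate 1 (Thbs4 and Comp) and 1, Chad, in P54 replicate 2. P59 replicate 2 stood apart from the other arrays over all genes tested, with a score of 35.4 on the first principal component against -22.5 to -4.31. This component held 57.3% of the variance. P59 replicate 1 had a Spearman correlation of 0.970 and 0.953 with the P54 arrays and of only 0.930 with P59 replicate 2. The widest spread was thus that of 1 array and not of the times. P59 replicate 2 held the highest value for 46.4% of all genes tested. Leaving it out, the 8 members with separate groups differed by 0.55 (Tnmd) to 1.60 (Nox4). The 7 genes highest in this array all differed less without it, while Thbs4 rose from 0.97 to 1.36. The median over the 10 genes was then 1.21, beside 1.16 with all arrays, so it does not show those 7 decreases. Leaving out P59 replicate 1, the 8 differed by 0.58 (Thbs4) to 2.71 (Nox4), with a median of 1.49 over the 10. That each of these 8 genes was higher in either P59 array alone follows from its separate groups and is no further support.

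**Figure D2:**
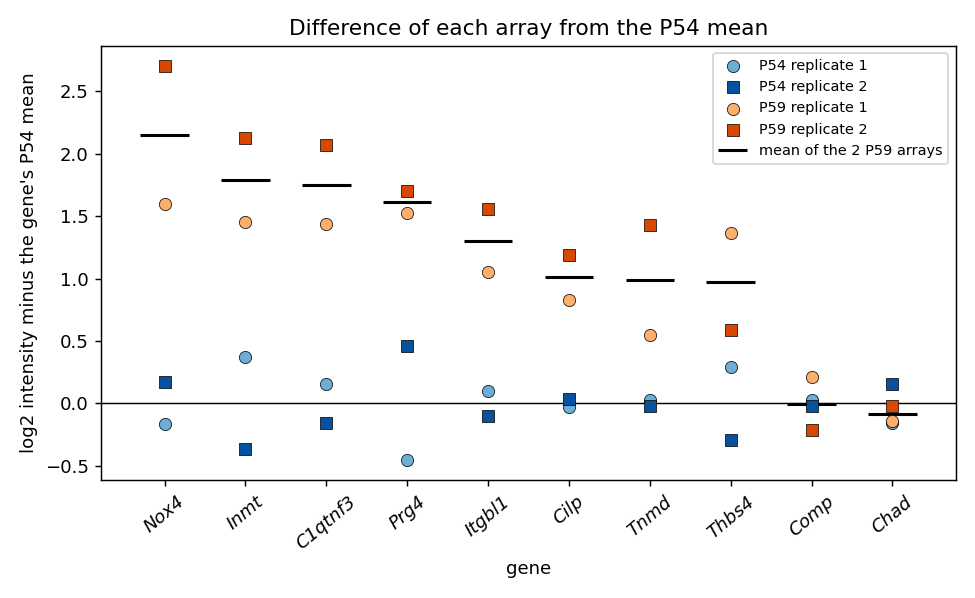
Log2 intensity of each array minus the gene's P54 mean (vertical axis) for the 10 genes (horizontal axis, ordered by the mean difference); symbols are as in the plot of intensities by array and black bars are the mean of the P59 arrays. The bars run from 2.15 for Nox4 to -0.08 for Chad, and P59 replicate 2 is above P59 replicate 1 for 8 of the 10 genes.

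Lists of related genes, which leave the 10 members out, were set beside the share of all genes tested that were higher at P59, 58.4%. In limma's fit 0.0183% of genes tested (2 genes) were higher past an adjusted p of 0.05 and 0% were lower, and at an unadjusted p under 0.05 the shares were 3.47% higher and 3.01% lower. The tendon and ligament list had 24 of 29 measured genes above the filter, with 18 higher and 6 lower at P59 and a median log2 difference of 0.09. Its fibrillar collagen genes Col1a1, Col1a2 and Col3a1, named after their values were seen, lay near the top of the scale on all 4 arrays (log2 14.46 to 14.55), so no difference is read from them. The collagen-binding proteoglycan gene Dcn, named likewise, read 13.62 and 13.55 at P54 against 13.59 and 13.64 at P59. In limma's fit 0 genes of the tendon list passed the adjusted threshold and 4 had an unadjusted p under 0.05, all higher at P59. They were the collagen crosslinking enzyme Lox (1.02, adjusted p = 0.478), the matrix adaptor Matn2 (0.69, adjusted p = 0.608), and the small proteoglycans Ogn (0.65, adjusted p = 0.723) and Aspn (0.75, adjusted p = 0.767). Lox read 11.10 and 10.97 at P54 against 11.62 and 12.48 at P59, without overlap, and differed by 0.59 without P59 replicate 2. Matn2 differed by 0.44 and Aspn by 0.34 without P54 replicate 2, and Ogn by 0.36 and Aspn by 0.35 without P59 replicate 2. Aspn overlapped between the times.

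Of 24 measured cartilage matrix genes only 7 were above the filter, with 3 higher and 4 lower and a median of -0.02. In limma's fit 0 of them passed the adjusted threshold and 0 the unadjusted level. Col2a1, the main cartilage collagen gene, read 6.61 and 6.75 at P54 against 6.97 and 7.29 at P59 (log2 difference 0.45, adjusted p = 0.840; 0.29 without P59 replicate 2). The other cartilage genes named by the rule, Sox6 (-0.19), Cytl1 (0.13) and Fgfr3 (-0.06), differed little, with adjusted p from 0.954 to 0.990 in limma. Most of this cartilage list was thus at low intensity, apart from genes such as Sox9, Sox6 and Fgfr3 that skin appendages also use. The member Cilp, which the list leaves out, read 10.20 to 11.42.

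Fascia fibroblast genes had a higher median difference than tendon and cartilage genes, and the gap between these lists was not tested. Of 25 measured, 20 were above the filter, 12 of them higher and 8 lower, a share close to that of all genes. The groups did not overlap for 10 higher and 1 lower, beside 18.9% higher and 14.8% lower over all genes tested. The median log2 difference was 0.33, or 0.20 with all measured genes and 0.21 without P54 replicate 2. By limma 0 passed the adjusted threshold, while 6 higher genes and 1 lower gene had an unadjusted p under 0.05. Procr, the endothelial protein C receptor gene that also marks fascia fibroblasts, read 7.89 and 7.82 at P54 against 8.89 and 9.22 at P59 (1.20, adjusted p = 0.179). Anxa3, an annexin gene, was at 8.63 and 8.36 and then at 9.26 and 9.998 (1.14, adjusted p = 0.359). The matrix glycoprotein gene Emilin2 differed by 0.79 (adjusted p = 0.478) and Igfbp6, an IGF-binding protein gene, by 0.72 (adjusted p = 0.560). Clec3b, which encodes tetranectin, was the lower gene, at -0.89 (adjusted p = 0.723; named after its values were seen). Its groups overlapped, with 8.24 and 9.29 at P54 against 8.24 and 7.499 at P59, and it differed by -0.37 without P54 replicate 2 and by -0.52 without P59 replicate 2.

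General dermal fibroblast genes had 15 of 22 higher, 7 lower and a median of 0.10. By limma 0 passed the adjusted threshold, and 2 higher and 1 lower had an unadjusted p under 0.05. Mfap4, a microfibril-associated gene, differed by 0.96 (adjusted p = 0.493), and by 0.57 without P59 replicate 2, and the receptor gene Pdgfra by 0.64 (adjusted p = 0.648), or 0.42 without that array. Fn1, the fibronectin gene, differed by 0.39 (adjusted p = 0.889), and by 0.19 without P54 replicate 2. Crabp1, a retinoic acid-binding protein gene of some dermal fibroblasts, was lower, with 8.43 and 8.56 at P54 against 7.84 and 6.91 at P59 (-1.12, adjusted p = 0.448; -0.65 without P59 replicate 2). The members' median of 1.16 stands beside these list medians as a description, since the members were chosen with their differences known.

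**Figure D3:**
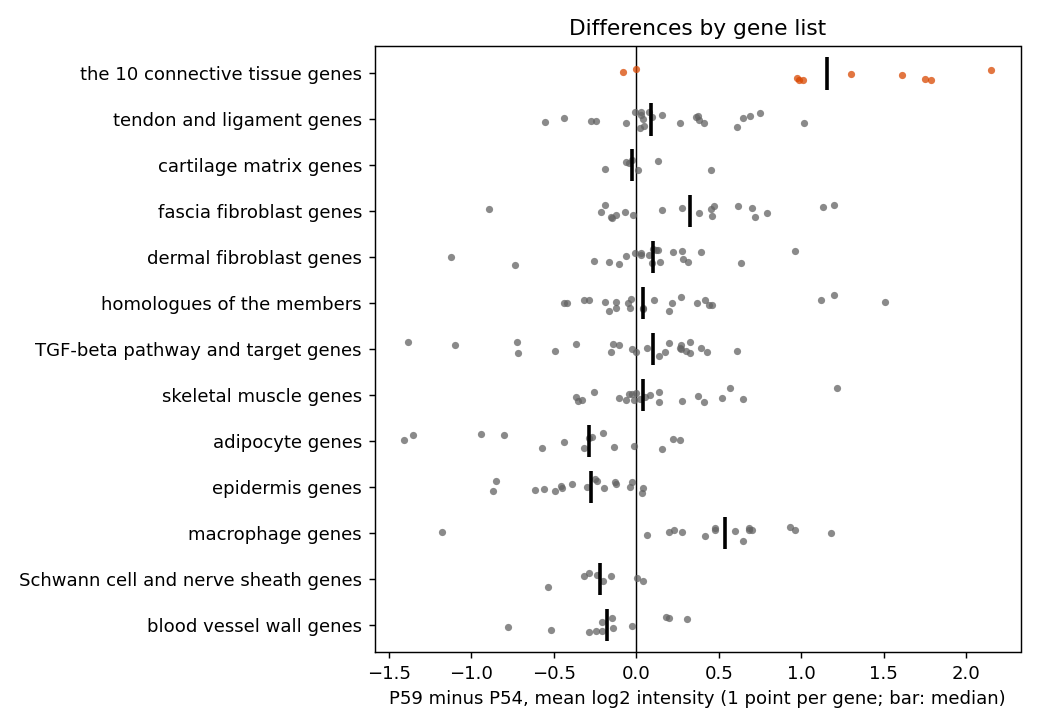
Difference of mean log2 intensity, P59 minus P54 (horizontal axis), for each gene (points) of the 10 members and of 12 lists that leave the members out (rows; genes above the filter in the lists), with the median of each row as a black bar. The bar of the members is at 1.16, that of the macrophage list at 0.54 and that of the fascia list at 0.33, while adipocyte and epidermis genes are at -0.29 and -0.27.

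Genes related to the members by sequence, partner or family differed one by one. Of 28 measured, 24 were above the filter, with 13 higher and 11 lower and a median of 0.04. Without overlap 10 were higher and 3 lower. Over all genes tested 58.4% had a higher mean, and 18.9% were higher and 14.8% lower without overlap. By limma 0 passed the adjusted threshold and 3 had an unadjusted p under 0.05, all higher. Thbs2, a trimeric thrombospondin, read 9.63 and 9.34 at P54 against 10.40 and 10.98 at P59 (1.20, adjusted p = 0.272). Thbs1 (0.27) and Thbs3 (-0.28), the latter a pentameric relative of Thbs4 and Comp, overlapped between the times. Omd (1.51, adjusted p = 0.282) and Prelp (1.12, adjusted p = 0.490), leucine-rich repeat proteoglycans related to Chad, were higher, while Chad's nearer relative Chadl differed by -0.04. Omd and Prelp differed by 0.96 and 0.63 without P59 replicate 2. The integrin gene Itgb3 differed by 0.46 (adjusted p = 0.849), and by 0.24 without P54 replicate 2. Cyba, the membrane partner that Nox4 needs, read 9.37 and 8.98 at P54 against 9.68 and 9.55 at P59 (0.44). The tenomodulin relative Cnmd, below the filter, was at 4.81 and 4.14 and then at 5.03 and 6.11. Of the relatives of C1qtnf3, C1qtnf1 differed by 0.37, C1qtnf2 by -0.19 and adiponectin (Adipoq) by -0.44. Thbs1, Thbs3, Chadl, Cyba, Cnmd, C1qtnf1, C1qtnf2 and Adipoq were named for their kinship to members after their values were seen.

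TGF-beta, the growth factor that raises matrix production in fibroblasts and of which Nox4 and Comp are known targets, had a list of 24 measured genes. All were above the filter, with 13 higher, 11 lower and a median of 0.10. By limma 0 passed the adjusted threshold, with 1 higher gene and 2 lower ones at an unadjusted p under 0.05. The receptor gene Tgfbr2 differed by 0.61 (adjusted p = 0.698), but by -0.0056 when its probe sets were averaged. The matricellular gene Ccn2 read 11.88 and 12.02 at P54 against 9.62 and 11.50 at P59 (-1.39, adjusted p = 0.588; -0.45 without P59 replicate 1). The repressor gene Ski differed by -0.72 (adjusted p = 0.762), or by -0.22 without P59 replicate 2. The ligand gene Tgfb1 differed by -1.10 (adjusted p = 0.835) through P59 replicate 2, at 5.77 against 7.95 to 8.10 on the other arrays, and by 0.06 without it.

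Summed markers of muscle and of dermal fibroblasts overlapped between the groups, and those of fascia fibroblasts lay narrowly apart. The summed intensity of 8 muscle markers of the panniculus carnosus was 100219 to 124543 at P54 and 94633 to 130457 at P59, and without the 4 brightest of them (log2 intensity above 14) it was 37003 to 50162 and 40800 to 54167. The muscle list had 12 genes higher and 10 lower of 22 (median 0.04), with the myoglobin gene Mb at 1.22 (adjusted p = 0.460) and Neb (0.65), Ryr1 (0.57) and Myh1 (0.41) at adjusted p from 0.787 to 0.870 in limma. Without P54 replicate 2 these differed by 0.66, 0.19, 0.13 and 0.26, and Mb by 0.62 with its probe sets averaged. Of the dermal fibroblast markers the 3 collagen genes are near the top of the scale. The other 4 summed to 26117 to 29068 at P54 and 28029 to 32248 at P59. Among these the brighter Dcn and Lum overlapped. Pdgfra (10.05 and 9.99 against 10.44 and 10.87) and Dpt (12.23 and 12.20 against 12.36 and 12.70) were higher without overlap. The sum of 6 fascia fibroblast markers was 4094 to 4685 at P54 and 4764 to 5961 at P59, narrowly higher without overlap. Of the 6 markers 5 were higher. The brightest, Sema3c, had a lower mean and overlapped, with 11.25 and 11.10 at P54 against 10.69 and 11.23 at P59. No marker list has a value of 0, since these intensities never reach it.

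Summed epidermis and fat markers were lower at P59, and summed macrophage markers higher. The sum of 7 epidermis markers was 68148 to 72936 at P54 and 56509 to 59041 at P59 (34848 to 38534 and 24404 to 31876 without the 2 brightest), and that of 6 adipocyte markers 15719 to 17590 and 12858 to 14798. The epidermis markers Lor and Flg overlapped between the times, Flg with a higher mean at P59. Fabp4, the brightest adipocyte marker, overlapped (13.26 and 13.07 against 12.83 and 13.09). Lep and Retn also overlapped, Retn with a higher mean at P59, while Adipoq, Cidec and Lipe were lower without overlap. Of 18 epidermis genes 16 were lower (median -0.27), 12 without overlap, and of 15 adipocyte genes 12 were lower (median -0.29), 7 without overlap. The macrophage list had 15 of 16 genes higher, 10 without overlap, with a median of 0.54. Over all genes tested 18.9% were higher and 14.8% lower without overlap. The summed macrophage markers were 6216 to 7116 at P54 and 7124 to 10502 at P59, so P59 replicate 1 stood barely above P54 replicate 1. In P59 replicate 1 the markers Csf1r (11.45) and Cd163 (8.97) lay below both P54 arrays, and the other markers above them. In limma's fit 0 genes of these 3 lists passed the adjusted threshold, with 4, 4 and 8 at an unadjusted p under 0.05. The part of these cell types in the members' difference was not tested.

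**Figure D4:**
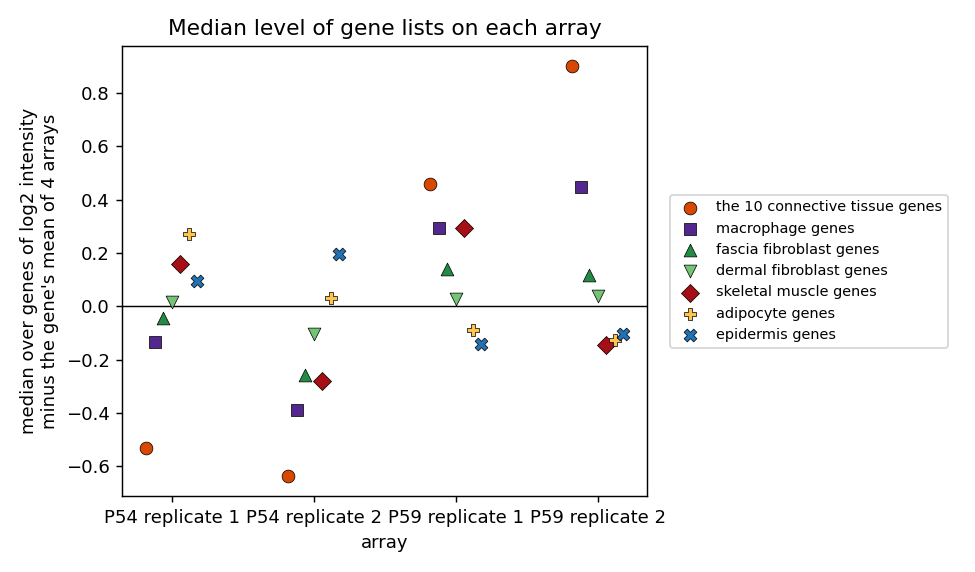
Median over the genes of a list of log2 intensity minus the gene's own mean of the 4 arrays (vertical axis), on each array (horizontal axis). The 10 members run from -0.53 and -0.64 on the P54 arrays to 0.46 and 0.90 on the P59 arrays, macrophage genes from -0.13 and -0.39 to 0.29 and 0.45, and muscle genes follow no group.

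The genes outside the set with the profile most like that of the members were found by the distance, over the 4 arrays, between gene-centred log2 profiles. The distance was taken to the members' median profile, which is itself higher at P59, among genes above the filter. Itgbl1 was the member closest to the median to which it contributes, at 0.13, followed by Cilp (0.30) and Tnmd (0.43). Nox4 (1.06), with its wide difference, and Thbs4 (0.98), with its own order of the P59 arrays, lay far from the median profile. Comp and Chad were farthest, at 1.41 and 1.40.

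The 6 nearest other genes were Procr (distance 0.14), Pamr1 (0.17), Ms4a6d (0.18), Thbs2 (0.20), Adamts5 (0.22) and Hoxc9 (0.27). Pamr1, which encodes a secreted protease-like protein, read 7.15 and 7.02 at P54 against 8.09 and 8.40 at P59. Adamts5, an aggrecan-cleaving protease gene, was at 9.09 and 8.79 and then at 9.82 and 10.30. Ms4a6d, a gene of the membrane-spanning 4A family found in macrophages, was at 7.25 and 7.32 and then at 8.25 and 8.81. Hoxc9, a trunk-type homeobox gene, read 7.18 and 6.89 at P54 against 7.89 and 8.29 at P59. Since the profile sought fixes their direction and rough size, no test is given for them as a group. With 4 arrays a like profile is a description of these samples and many genes can share it.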

How the data were processed

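Whole-skin RNA of 4 samples, 2 per time, was labelled with biotin and hybridised to Affymetrix arrays, per the labels' protocols. The authors deposited the intensity of each probe set on a linear scale, in 1 table for the 4 arrays. RMA in Affymetrix Expression Console is named in the submitters' processing notes, and versions are not given in the sources used here. RMA levels arrays to a common distribution, so shifts common to most genes are removed.

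Of 45101 probe sets 34945 had 1 gene symbol in GEO's platform annotation. Those with several symbols (932), none (9160) and control sets (64) were left out. Entrez identifiers matched 34741 sets to RefSeq's GRCm38.p6 annotation, which was used for names. Log2 was taken directly, with no pseudocount added. The probe set with the highest mean stood for a gene, and the 10916 of 18193 genes whose mean passed the 40th percentile were tested. The groups were compared by lmFit and eBayes of limma 3.58.1, run in R 4.3.3, with Benjamini-Hochberg adjustment over all genes tested and a threshold of 0.05. The fit was checked on simulated data. An exact two-sided permutation test of 2 against 2 arrays cannot go below 0.333. Array number limits the precision.

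The members, the 12 lists and the tests were chosen with earlier results of these data known. Named were all members, up to 4 genes of each list with the smallest p, and the 6 genes nearest in profile; others are said to have been named after their values were seen. Alternatives were other filters, the mean of probe sets, repeated quantile normalization, a pseudocount of 16, an intensity trend, the replicate number as a block and each array left out. Marker sums without the brightest markers were added after seeing the data.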

Additional observations from a re-analysis of the deposited data

How the results depend on the processing

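The filters, the intensity trend and the block cannot alter the members' differences, and averaging probe sets can alter that of Nox4 alone. Under repeated normalization the 8 members with separate groups kept a positive difference. With the pseudocount or an array left out, their separate groups fix a positive sign in advance, so that outcome is no support. Comp ranged from -0.21 to 0.21 and Chad from -0.24 to 0.076 with single arrays left out. Leaving out single arrays, the members' median ranged from 1.12 to 1.49 (1.49 without P59 replicate 1). Genes past the adjusted threshold and higher numbered 0 without the filter, above the 60th percentile, with the mean of probe sets, after repeated quantile normalization and with the pseudocount. With 1 array left out, where the lone array is assumed to vary like the others, they ranged from 22 to 115, and lower genes from 5 to 287. Genes higher without overlap numbered 4243 without the filter and 1223 above the 60th percentile, and 2495 to 5620 with 1 array left out. Lower ones numbered 2244 to 3928 then; fewer arrays make overlap rarer by construction. Same-numbered arrays did not deviate together (correlation -0.04 over 10916 genes). The labels do not say whether the numbers pair the samples, and 2 arrays per time cannot settle it. With the replicate number as a block 75 genes were higher and 81 lower past the threshold. Of the 48 listed genes named by the rule 33 moved by over 1.5 times with some array left out. Among these genes signs turned for Tgfbr2 (-0.0056), Ryr1 (-0.36) and Cdh5 (-0.14) with the mean of probe sets, for Cdh19 (-0.59 to 0.11 with single arrays left out, turned without P59 replicate 1) and for Tgfb1 (-2.26 to 0.057, turned without P59 replicate 2); the cause was not tested. List medians near 0 turned sign too: muscle to -0.12 without P54 replicate 2 or P59 replicate 1, TGF-beta to -0.03 without P54 replicate 2 and -0.01 with averaged sets, homologues to -0.02 without P54 replicate 2, and cartilage to 0.06 without P54 replicate 1, 0.03 after repeated normalization and 0.01 without the filter. Array number and low intensity limit what can be said of Comp, Chad, and the P54 levels of Prg4 and Nox4.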

Other observations

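Nerve sheath and vessel wall genes were mostly lower at P59, while 58.4% of all genes tested were higher. Of 8 Schwann cell and nerve sheath genes above the filter 6 were lower (median log2 difference -0.22, or -0.05 without P59 replicate 1). The myelin gene Mbp read 11.51 and 10.84 at P54 against 10.78 and 10.50 at P59 (-0.54, adjusted p = 0.835 in limma's fit, and -0.20 without P54 replicate 1). Mal, Sox10 and Cdh19 differed by -0.32, -0.29 and -0.24. Mal differed by -0.07 without P54 replicate 1, Sox10 by -0.12 without P59 replicate 2 and Cdh19 by 0.11 without P59 replicate 1. Of 12 vessel wall genes 9 were lower (median -0.18), with the smooth muscle gene Cnn1 at -0.78 (adjusted p = 0.603; -0.41 without P59 replicate 2) and the mural cell receptor gene Notch3 at -0.51 (adjusted p = 0.760). The endothelial genes Cdh5 and Vwf differed by 0.31 and -0.24. In limma's fit 0 genes of either list passed the adjusted threshold, with 0 of the nerve genes and 2 of the vessel genes at an unadjusted p under 0.05.

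Among macrophage genes the scavenger receptor gene Msr1 had the smallest p. It read 6.11 and 6.08 at P54, below the filter level, against 7.45 and 7.10 at P59 (1.18, adjusted p = 0.179 in limma's fit). Msr1 passed the filter through its P59 values alone, so its difference is rough and its p is no support for a change. Unlike 7 of the 8 members with separate groups, it was higher in P59 replicate 1 than in P59 replicate 2. Of all genes tested that were higher without overlap, 72.9% had P59 replicate 2 above P59 replicate 1.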
